A study of Homo sapiens with 4 samples.

Results

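The 10 genes described here are ligands and enzymes with which a tumour cell meets T cells, NK cells and macrophages. CD274, PDCD1LG2 and CD276 belong to the B7 family, CD47 restrains phagocytes, NT5E and IDO1 are enzymes that shape adenosine and tryptophan outside and inside the cell, LGALS9 is a galectin, and ULBP2, MICA and MICB are recognised by NK cells through the receptor NKG2D. They were taken by name, through the probe annotation of the array (current symbol or alias). All 10 were measured among 18132 genes, by 29 probe sets annotated to 1 of them alone and 5 shared with close relatives.

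UM1 is an established human tongue squamous cell carcinoma (TSCC) line. The cells were kept for 7 days at 5.6 mM glucose, named normal glucose here, or at 16.7 mM, named high glucose, without any other treatment named in the labels, and total RNA of 2 cultures per group, called biological replicates, was hybridised to 4 arrays. The arrays therefore compare 1 cell line at 2 glucose levels, with no immune cells added. Values are on the log2 scale after RMA, so that 1 unit is a 2-fold difference. Calls of a higher or lower gene rest on limma, with the Benjamini-Hochberg adjusted p under 0.05 over all genes.

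PD-L1 (CD274) and PD-L2 (PDCD1LG2) bind PD-1 on T cells and dampen their activation, and interferon gamma is the classical inducer of both. B7-H3 (CD276) is a B7 relative that is abundant on many carcinomas. CD47 gives macrophages a signal against engulfment through SIRPA. NKG2D ligands act in the opposite sense: they appear on stressed or transformed cells and mark them for NK cells and cytotoxic T cells.

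The 10 genes did not move as a block. In high glucose 6 of 10 were called higher, 0 were called lower and 4 were not called, and every one of the 6 was a checkpoint ligand or enzyme, while ULBP2, MICA and MICB were not called. Over all genes 15.5% were called higher and 22.2% were called lower. The median difference of the 10 genes was 0.80 on the log2 scale, against -0.03 over all genes, and 0.67 with IDO1 at its lower bound. The arrays of the groups did not overlap for 8 of the 10 genes, but this held for 64.8% of all genes. The count of 0 lower genes in limma depended on the probe set read for MICB, described below. At an unadjusted p under 0.05 limma also gave 0 lower genes, and the methods' t-test gave 1 lower gene before and 0 after adjustment.

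**Figure D1:**
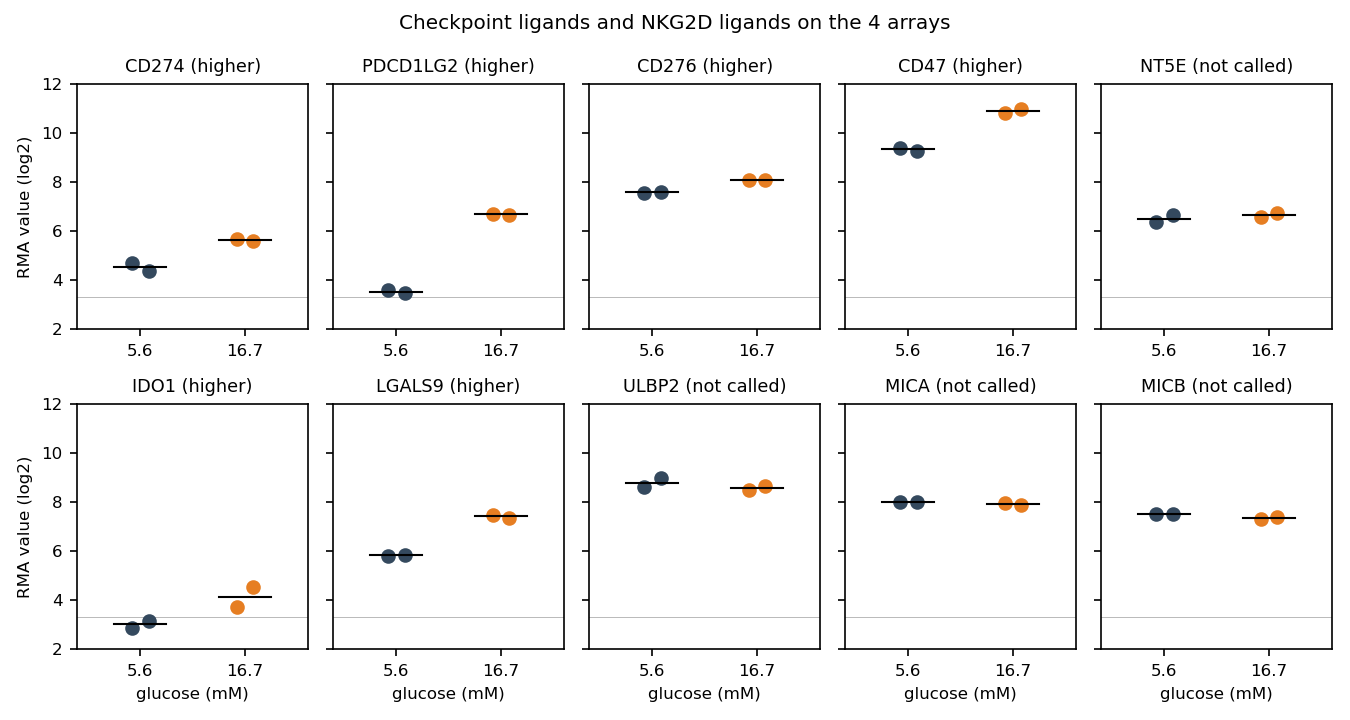
Level of each of the 10 genes on the 4 arrays. Each point is 1 array (log2 RMA value of the probe set used for the gene), bars are the means of the 2 arrays, and the thin grey line marks the 25th percentiles of the arrays (3.26 to 3.32). PDCD1LG2 shows the widest separation, IDO1 starts under the grey line, and the points of NT5E and ULBP2 overlap between the groups.

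PDCD1LG2 had the largest difference of the 10 in the probe sets used. Its level was 3.60 and 3.46 in normal glucose and 6.72 and 6.67 in high glucose. The normal glucose arrays lay just above the 25th percentiles of the arrays and the high glucose arrays above the array medians (5.01 to 5.07). This was an 8.97-fold rise, with a log2 difference of 3.16 ± 0.0923 (SE, n = 2 per group). Limma gave an adjusted p of 1.03e-05, and 168 of the 18132 genes rose by more. The probe set was used because its mean over the 4 arrays was the highest, which its high glucose level brought about. The other 3 probe sets of PDCD1LG2 were also called higher and gave 2.35-fold, 2.46-fold and 3.52-fold, so that all 4 had the same sign and differed in size. With the mean of all probe sets of a gene CD47 came before it (log2 differences of 2.17 and 1.88), as it did with their median (2.59 and 1.86).

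CD274 rose by less than its neighbour PDCD1LG2 did. Its level was 4.72 and 4.36 in normal glucose and 5.69 and 5.59 in high glucose. Both normal glucose arrays lay under the array medians and both high glucose arrays above them. The rise was 2.14-fold (log2 difference 1.10, SE 0.138, n = 2 per group, adjusted p = 0.00169 from limma). Of its 4 probe sets 3 were called higher, at 1.59-fold to 2.17-fold. The remaining probe set stayed below the 25th percentile on each array. CD274 was not called by the methods' t-test after adjustment.

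CD276 had a small and even rise. The arrays read 7.58 and 7.62 in normal glucose and 8.10 and 8.09 in high glucose, and the gap between the groups exceeded the gap within either of them. It was 1.41-fold higher (log2 difference 0.50, SE 0.083, n = 2 per group, adjusted p = 0.00502 from limma), and its second probe set gave 1.47-fold. This difference is under the 1.5-fold threshold that the methods set.

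The promoters of these genes are shown because no element searched for was found in all of the risers that had a promoter. From RefSeq (GRCh38.p14), 8 of the 10 genes had a promoter of 300 bases, 250 before and 50 after the start site. PDCD1LG2 and IDO1 had none. Motifs were sought on both strands and overlapping matches were counted. Printed below are the 250 bases before the start site, with matches to the interferon elements ISRE (a pair of GAAA with 2 bases between them) and GAS (TTCNNNGAA), to NF-kB (GGGA and CC with 4 bases between them), AP-1 (TGANTCA), the hypoxia element (ACGTG or GCGTG), the heat shock element (GAANNTTC), the E-box (CACGTG) and the amino acid response element (TGATGNAAT) in capitals.
CD274 promoter, chr9:5450292-5450541, plus strand: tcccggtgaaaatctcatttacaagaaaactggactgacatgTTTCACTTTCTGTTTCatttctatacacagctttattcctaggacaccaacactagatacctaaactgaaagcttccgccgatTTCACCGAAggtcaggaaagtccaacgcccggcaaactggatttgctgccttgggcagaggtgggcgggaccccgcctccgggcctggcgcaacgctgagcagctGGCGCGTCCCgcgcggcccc
CD47 promoter, chr3:108091032-108091281, minus strand: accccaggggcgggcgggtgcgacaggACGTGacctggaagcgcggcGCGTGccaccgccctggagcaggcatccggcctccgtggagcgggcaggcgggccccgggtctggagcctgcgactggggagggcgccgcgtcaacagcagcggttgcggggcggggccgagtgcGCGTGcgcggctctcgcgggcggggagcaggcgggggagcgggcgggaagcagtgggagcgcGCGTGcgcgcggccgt

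In CD274 a pair of overlapping ISRE matches lay at -208 to -193 and a GAS match at -125 to -117, counted from the start site. ISRE matches stood in 3.57% and GAS matches in 7.66% of all 35116 promoters of the same length. CD47 held neither of them and 4 hypoxia elements, a motif found in 48.4% of all promoters. In LGALS9 an ISRE match ended on the first transcribed base, and the 41 bases up to it are printed for that reason, with this match in capitals.
LGALS9 start site, chr17:27631148-27631188, plus strand: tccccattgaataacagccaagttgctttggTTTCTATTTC

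CD276, with 2 promoters in RefSeq, held NF-kB matches and neither interferon element. ULBP2 and NT5E also had no ISRE or GAS match. NF-kB matches stood in CD274, LGALS9 and NT5E as well, and in 25.6% of all promoters. No promoter of the 8 genes held an E-box or an amino acid response element (7.26% and 0.991% of all promoters). The GC box (GGGCGG) was also sought and is not in capitals. It stood in all of the 8 genes except LGALS9, and in 45% of all promoters. These are matches of letters, and binding was not measured.

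CD47, the surface protein that SIRPA recognises, was among the stronger risers. It read 9.40 and 9.29 in normal glucose and 10.85 and 10.98 in high glucose. The lower of the high glucose arrays was still far above the higher of the normal glucose arrays. The rise was 2.96-fold (log2 difference 1.57, SE 0.0963, n = 2 per group, adjusted p = 0.00011 from limma). Its brightest probe set gave the smallest rise, and the 2 dimmer ones were 6.01-fold and 5.14-fold higher.

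Of 15 protein partners of PD-L1 and CD47 that were listed, 4 were higher, 7 were lower and 4 were not called, with a median difference of -0.08. THBS1, the secreted thrombospondin that binds CD47, rose 19.6-fold, and SIRPA itself rose 4.66-fold from 6.07 and 6.25 to 8.47 and 8.30 (adjusted p = 5.56e-06 and 4.82e-05 from limma, n = 2 per group). CMTM4, which stabilises PD-L1 at the cell surface, was lower by a factor of 3.32, and STT3A, a subunit of the enzyme that attaches N-glycans, by a factor of 1.91. CMTM6, the main surface stabiliser of PD-L1, read 9.36 and 9.52 on average in normal and high glucose and was not called (adjusted p = 0.202 from limma). QPCTL and QPCT, the glutaminyl cyclases, of which QPCTL modifies the SIRPA binding site of CD47, were lower by factors of 1.35 and 1.80. CMTM6, QPCTL and QPCT were singled out after their values were seen. The higher genes of this list were 2 without normal glucose replicate 2, with the mean or the median of the probe sets, with the methods' t-test or with an added 2-fold threshold. The lower ones were 4 with the methods' thresholds and 1 with the methods' t-test or the 2-fold threshold.

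LGALS9 encodes galectin-9, a sugar-binding protein that engages TIM-3 on T cells. The arrays read 5.81 and 5.86 in normal glucose and 7.48 and 7.37 in high glucose, with no overlap. It rose 3.01-fold (log2 difference 1.59, SE 0.0901, n = 2 per group, adjusted p = 8.23e-05 from limma), and its other own probe set gave 2.09-fold. Each of these probe sets has a name ending in _x_at, which marks probes that can bind other transcripts. The probe set shared with its near-identical copies LGALS9B and LGALS9C gave 4.74-fold, and signals of the 3 genes cannot be told apart. The list of galectins and TIM-3 had 5 measured genes, with a median of 0.04. LGALS3BP, a secreted galectin ligand, was higher (1.82-fold), and the other 4, LGALS2, LGALS4, LGALS8 and HAVCR2, were not called. The higher genes were 5 once probe sets shared between genes were read, which adds the copies of LGALS9 to the list, and 0 with the methods' t-test or an added 2-fold threshold. With the mean or the median of the probe sets 1 gene was lower. HAVCR2, the gene of TIM-3, lay under the 25th percentile in either group (2.50 and 2.54 on average). The galectins LGALS1 and LGALS3 were counted with the other checkpoint ligands below. LGALS1 was 6.12-fold higher and LGALS3 was lower by a factor of 1.31 (adjusted p = 1.64e-05 and 0.0134 from limma). LGALS3 was singled out after its values were seen.

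**Figure D2:**
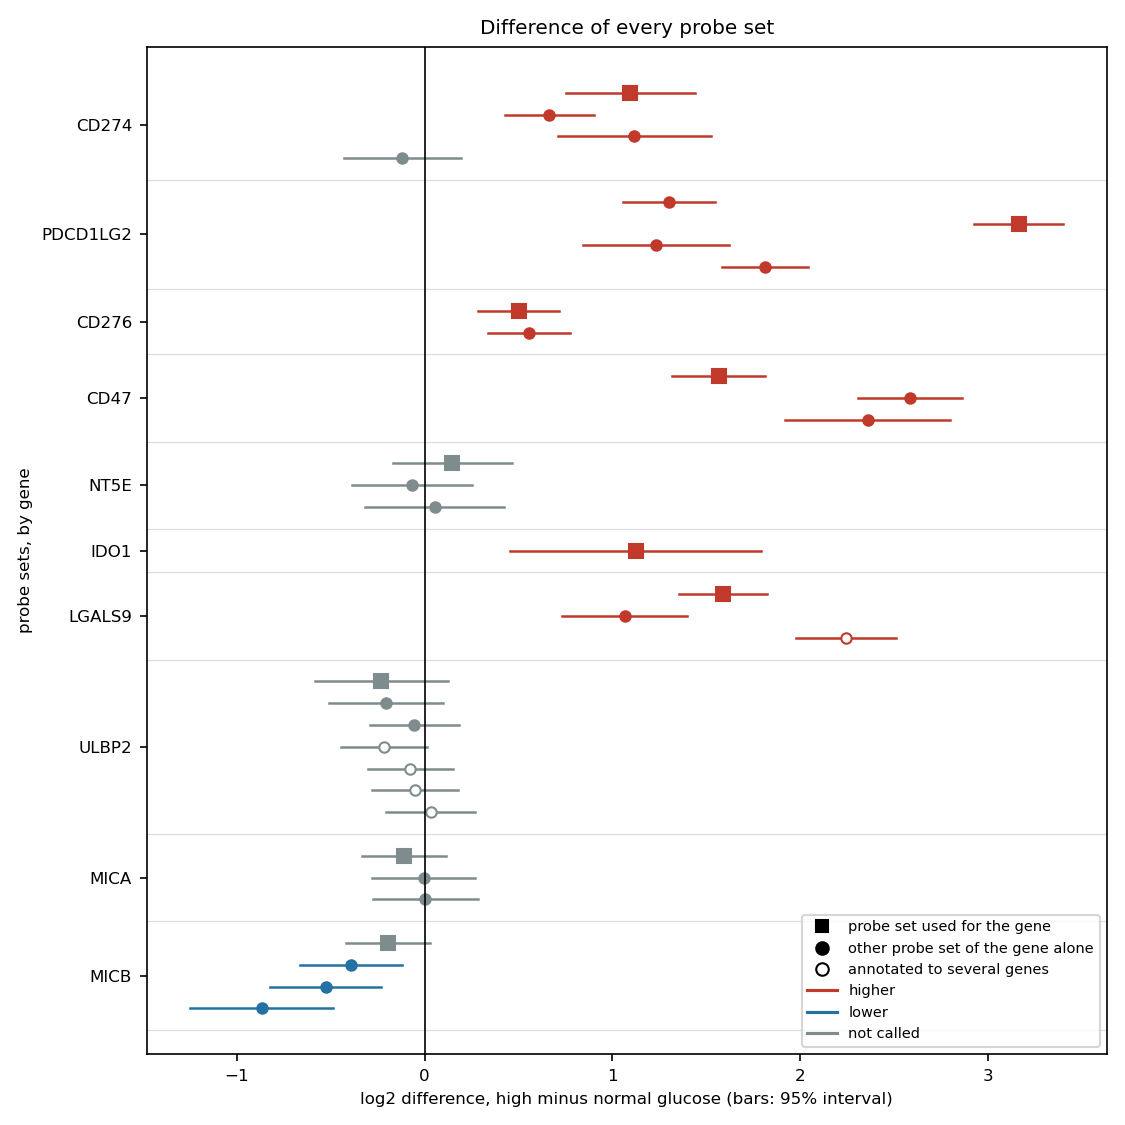
Log2 difference (high minus normal glucose) of every probe set of the 10 genes, with 95% intervals from limma over all probe sets. Squares are the probe sets used for a gene, open circles are shared with related genes, and colours give the call. The probe sets of PDCD1LG2, CD274 and CD47 each spread over more than 1 unit, those of MICA lie near 0, and 3 of the 4 of MICB lie below 0 beyond their intervals.

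IDO1, the interferon-inducible enzyme that opens tryptophan into kynurenine, was near the array background. It read 2.86 and 3.16 in normal glucose, each under the 25th percentile of its array, and 3.72 and 4.55 in high glucose. The high glucose arrays lay 0.83 apart, the widest gap within a group among the 10 genes, and stayed under the array medians. Against the 25th percentile as a floor the rise was at least 1.80-fold (measured log2 difference 1.12, SE 0.273, n = 2 per group, adjusted p = 0.0218 from limma). IDO1 had 1 probe set. Its call ended without normal glucose replicate 1, normal glucose replicate 2 or high glucose replicate 2 (adjusted p = 0.164, 0.0979 and 0.0572 from limma).

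The genes around IDO1 in tryptophan metabolism mostly did not follow it. Of 19 genes of the tryptophan and kynurenine list, 1 was higher, 8 were lower and 10 were not called, with a median of -0.32. KYNU, the kynureninase that breaks kynurenine down, had the largest fall. It read 9.97 and 10.1 in normal glucose and 6.79 and 6.73 in high glucose, lower by a factor of 9.69 (adjusted p = 9.32e-06 from limma, n = 2 per group). WARS1, the tryptophanyl-tRNA synthetase, was lower by a factor of 3.78 and AHR, the receptor that kynurenine can activate, by a factor of 2.10. KMO, the kynurenine hydroxylase, was the higher one, at 2.74-fold from an average of 3.34. IDO2 and TDO2, which carry out the same step as IDO1, were not called and read between 3.29 and 3.52 on average. The count of lower genes in this list was 5 with the methods' t-test, the methods' thresholds or an added 2-fold threshold. It also fell when some of the arrays were left out.

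NT5E encodes CD73, the surface enzyme that makes adenosine from AMP. It read 6.37 and 6.67 in normal glucose and 6.60 and 6.73 in high glucose, and the groups overlapped. The log2 difference was 0.15 (95% interval -0.17 to 0.46, adjusted p = 0.437 from limma, n = 2 per group), and all 3 of its probe sets were not called, at 0.955-fold to 1.11-fold. The interval leaves room for a rise of up to 0.46 and a fall down to -0.17 on the log2 scale.

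Among 15 measured genes of extracellular ATP and adenosine, 4 were higher, 1 was lower and 10 were not called, with a median of 0.00. Over all genes 15.5% were called higher and 22.2% were called lower. ADORA2B, an adenosine receptor, was lower by a factor of 3.05, from 8.64 and 8.69 to 7.02 and 7.09 (adjusted p = 6.56e-05 from limma, n = 2 per group). ENTPD3, which hydrolyses extracellular ATP, rose 2.58-fold, ADA, which breaks adenosine down, 2.15-fold, and PANX1, a channel that releases ATP, 1.79-fold. ENTPD1 (CD39), which feeds CD73 in many tissues, was not called, with averages of 3.60 and 3.70. It was singled out after its values were seen.

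The 3 NKG2D ligands were not called by the probe sets used for them. ULBP2 read 8.63 and 8.98 in normal glucose and 8.48 and 8.66 in high glucose, with overlap. Its log2 difference was -0.23 (95% interval -0.58 to 0.12, adjusted p = 0.27 from limma, n = 2 per group). Its 4 shared probe sets, annotated also to RAET1L and mostly to RAET1G, ranged from -0.22 to 0.03 and were not called. The other 2 own probe sets were at or near the 25th percentile.

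MICA, a stress-induced relative of the MHC class I molecules, read 8.02 on each normal glucose array and 7.95 and 7.87 in high glucose. The log2 difference was -0.11 (95% interval -0.32 to 0.10, adjusted p = 0.397 from limma, n = 2 per group). The groups did not overlap, but the gap was no larger than the spread of the high glucose arrays, and the other 2 probe sets of MICA gave -0.01 and 0.00.

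MICB, the closest relative of MICA, was the gene whose reading depended on its probe set. The brightest one read 7.54 on each normal glucose array and 7.30 and 7.39 in high glucose, a log2 difference of -0.19 (95% interval -0.41 to 0.02, adjusted p = 0.14 from limma, n = 2 per group). The other 3 were lower by factors of 1.31, 1.44 and 1.82 and were each called in the fit over all probe sets (adjusted p = 0.0376, 0.0178 and 0.00701 from limma). The largest of these falls went from 5.17 and 5.56 to 4.60 and 4.39. In that fit 20.4% of all probe sets were called lower and 15.1% were called higher, against 3 and 15 of the 29 own probe sets of the 10 genes. The brightest probe set of MICB is an _x_at one, whose probes can bind other transcripts. With the mean of its 4 probe sets, MICB was called lower, at -0.50 (adjusted p = 0.00525 from limma).

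The promoters of MICA and MICB are shown because the pair shares its layout, 82.7% of aligned bases being identical over the 250 before the start site. Each held the same heat shock element (GAATTTTC), at -135 to -128 in MICA and at -139 to -132 in MICB, a motif found in 6.77% of all promoters, and a pair of hypoxia elements. Capitals mark the same motifs as above.
MICA promoter, chr6:31403345-31403594, plus strand: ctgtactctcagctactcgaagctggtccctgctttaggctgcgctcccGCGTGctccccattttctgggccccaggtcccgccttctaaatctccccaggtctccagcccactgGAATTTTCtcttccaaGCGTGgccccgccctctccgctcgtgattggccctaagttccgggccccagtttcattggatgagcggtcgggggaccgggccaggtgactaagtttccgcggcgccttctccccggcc
MICB promoter, chr6:31497895-31498144, plus strand: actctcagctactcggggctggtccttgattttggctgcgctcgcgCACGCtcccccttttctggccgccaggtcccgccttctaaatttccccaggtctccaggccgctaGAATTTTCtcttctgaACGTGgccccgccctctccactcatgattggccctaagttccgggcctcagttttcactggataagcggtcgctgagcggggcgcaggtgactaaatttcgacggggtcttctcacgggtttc

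Of the remaining ligands of NKG2D 1 was higher and 1 was lower. RAET1G rose 2.46-fold, from 5.63 and 5.19 to 6.87 and 6.56 (adjusted p = 0.00232 from limma, n = 2 per group). ULBP1 was lower by a factor of 1.70 (adjusted p = 0.00134 from limma), with averages of 4.38 and 3.61. ULBP3, RAET1E and RAET1L were not called, at log2 differences of 0.34, 0.20 and 0.46, and RAET1E did not exceed the 25th percentile in either group. The 3 probe sets that RAET1G shares with ULBP2 and RAET1L were not called (log2 differences of -0.08 to 0.03). The rise of RAET1G therefore rests on the brightest probe set of its own.

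Proteases and disulfide isomerases that take part in shedding NKG2D ligands changed in opposite directions. Of the 10 genes of this list, ligands included, 2 were higher, 4 were lower and 4 were not called, with a median of 0.23. The higher genes were 1 once probe sets shared between genes were read, and 0 with the methods' t-test. MMP14, a membrane-bound metalloproteinase, rose 2.48-fold, and ADAM17, the main sheddase of many surface proteins, was lower by a factor of 2.25 (adjusted p = 0.00038 and 0.000312 from limma, n = 2 per group). ADAM10 was not called, at a log2 difference of 0.27. PDIA6, the isomerase (ERp5) that prepares MICA for shedding, and PDIA4, its relative in the endoplasmic reticulum, were lower by factors of 2.15 and 2.60.

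Interferon gamma signalling genes were listed since this cytokine induces PD-L1, PD-L2, IDO1 and galectin-9. Of 20 measured, 13 were higher, 3 were lower and 4 were not called, with a median of 1.05. GBP1, a guanylate-binding protein, rose 55.6-fold, and the chemokines CXCL10 and CXCL11, which attract T cells, at least 30.2-fold and at least 10.2-fold from levels under the 25th percentile. GBP4 rose 9.57-fold (adjusted p for these 4 genes of at most 9.6e-05 from limma, n = 2 per group). The 3 lower genes were the signalling components JAK1, JAK2 and PTPN2, by factors of 1.55, 2.43 and 1.44. Of the higher genes, IRF9, STAT3, IFNGR2 and IRF2 are also signalling components, at 3.07-fold, 2.31-fold, 1.56-fold and 1.26-fold. The 4 genes not called were IFNGR1, IRF1, CIITA and CXCL9. In normal and high glucose CXCL9 averaged 3.30 and 3.72, and CIITA 5.25 and 5.08 (adjusted p = 0.057 and 0.231 from limma). Apart from GBP1, CXCL10, CXCL11 and GBP4, the genes named here were singled out after their values were seen. Many of the targets also respond to other interferons. With the methods' t-test 10 genes of this list were higher and 0 were lower, and with an added 2-fold threshold 10 and 1.

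**Figure D3:**
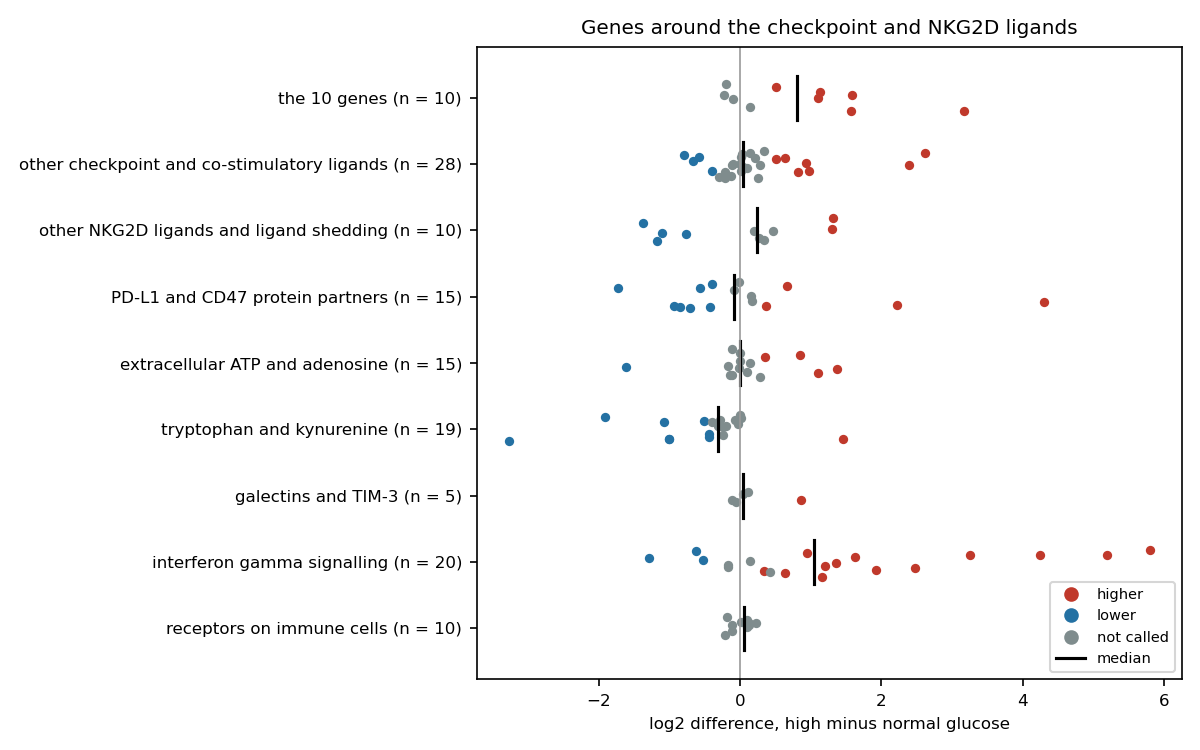
Log2 difference (high minus normal glucose) of the 10 genes and of every measured gene in the 8 lists around them. Each point is 1 gene, coloured by its call, and black bars are medians. The interferon gamma list and the 10 genes have the highest medians (1.05 and 0.80), and the receptors of immune cells all lie near 0.

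Among 28 other checkpoint and co-stimulatory ligands, 7 were higher, 4 were lower and 17 were not called, with a median of 0.04. LGALS1, galectin-1, rose 6.12-fold and CD24, a ligand of Siglec-10 on macrophages, 5.22-fold (adjusted p = 1.64e-05 and 2.11e-05 from limma, n = 2 per group). CD86, a ligand of CD28 and CTLA4, rose 1.97-fold, from 3.91 and 4.21 to 5.11 and 4.97, and BTN3A1, a butyrophilin that gamma delta T cells sense, rose by a log2 difference of 0.93. PVR, the ligand of TIGIT, and TNFRSF14 (HVEM), the ligand of BTLA, were lower by factors of 1.59 and 1.73. They were singled out after their values were seen. The call of TNFRSF14 was close to the threshold (adjusted p = 0.045 from limma). With the methods' t-test 3 genes of this list were higher and 1 was lower, and with an added 2-fold threshold 2 and 0. The lower genes were also fewer with any array left out.

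PD-1 and NKG2D themselves are not analysed here, and SIRPA was counted with the partners of CD47. Of 10 other receptors on immune cells, among them CTLA4, TIGIT, LAG3 and BTLA, limma called 0 in either direction, and their levels lay between 2.42 and 4.42 on all arrays. At an unadjusted p under 0.05 limma and the methods' t-test gave 0 in either direction as well, and 1 was higher in limma once probe sets shared between genes were read. Of 18 immune cell markers limma called 0 (1 higher and 1 lower at an unadjusted p under 0.05, by limma and by the methods' t-test). PTPRC (CD45), CD3D, LYZ and FCGR3A, 4 of the 18, did not exceed the 25th percentile on any array. The others exceeded it on at least 1 array. Among them CD3E, CD8A, CD14 and ITGAM averaged 4.02, 4.10, 4.22 and 3.51 in normal glucose and 3.99, 4.37, 4.20 and 3.45 in high glucose. The highest of the list were CD68, CD4 and NKG7, at averages of 6.65, 4.97 and 4.96 in normal glucose and 6.83, 5.06 and 5.0 in high glucose. The summed log2 level of these 18 markers was 67.9 and 70.7 in normal glucose and 69.7 and 69.4 in high glucose.

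Squamous markers were read as a check of the labelled tissue. On every array all 12 measured lay above the array medians (5.01 to 5.07), the lowest value being 6.49. The check rests on these levels, and what the calls between the glucose groups say about the cells was not tested. All 12 were called, 11 higher and 1 lower. The lower one was EPCAM, an epithelial adhesion protein, which averaged 11.15 in normal glucose and 7.98 in high glucose (lower by a factor of 8.99, adjusted p = 7.78e-05 from limma). KRT5, KRT14 and SFN averaged 9.94, 9.65 and 9.69 in normal glucose and 13.9, 13.7 and 12.9 in high glucose. Fibroblast markers moved with the risers in part. Of 9, 3 were higher, namely FAP (3.80 to 9.77 on average), COL1A1 (5.22 to 7.77) and COL1A2 (3.02 to 3.99). The other 6 were not called. Of these, PDGFRB averaged 4.46 and 4.21, and DCN, LUM, THY1, PDGFRA and COL6A3 averaged 2.37 to 3.29 in either group. The summed log2 level of the 9 was 31.7 and 31.0 in normal glucose and 41.5 and 40.1 in high glucose, and the part of these genes in the results was not tested. Of 5 endothelial markers 1, TEK, was higher (3.38 to 4.42), and VWF, KDR and PECAM1 averaged 5.18, 5.01 and 4.29 in normal glucose and 5.25, 5.13 and 4.23 in high glucose. RNA of a culture is an average, so that fewer cells with a transcript and less of it per cell cannot be told apart.

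The 10 genes lie on 6 chromosomes, and their measured neighbours were compared with them. CD274 and PDCD1LG2 stand side by side on chromosome 9, and both rose, while the flanking PLGRKT and RIC1 were not called (log2 differences of 0.24 and 0.20). ERMP1, next after RIC1, was 1.41-fold higher. The neighbours of CD47, CD276 and LGALS9 were not called. In the MHC region HCP5, between MICA and MICB, rose from an average of 7.90 to 8.91, and HLA-B and HLA-C before MICA rose 1.28-fold and 1.21-fold, whereas MICA and MICB were not called by the probe sets used. On the long arm of chromosome 6, ULBP2 stands between RAET1G, which rose, and ULBP1, which fell. SYNCRIP near NT5E was 1.46-fold higher. TCIM near IDO1 was also called, but its averages of 2.51 and 3.23 lay under the 25th percentiles, so that no fold is given. Of the 33 neighbours that are not among the 10 genes, 7 were higher, 1 was lower and 25 were not called, with a median of 0.03.

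**Figure D4:**
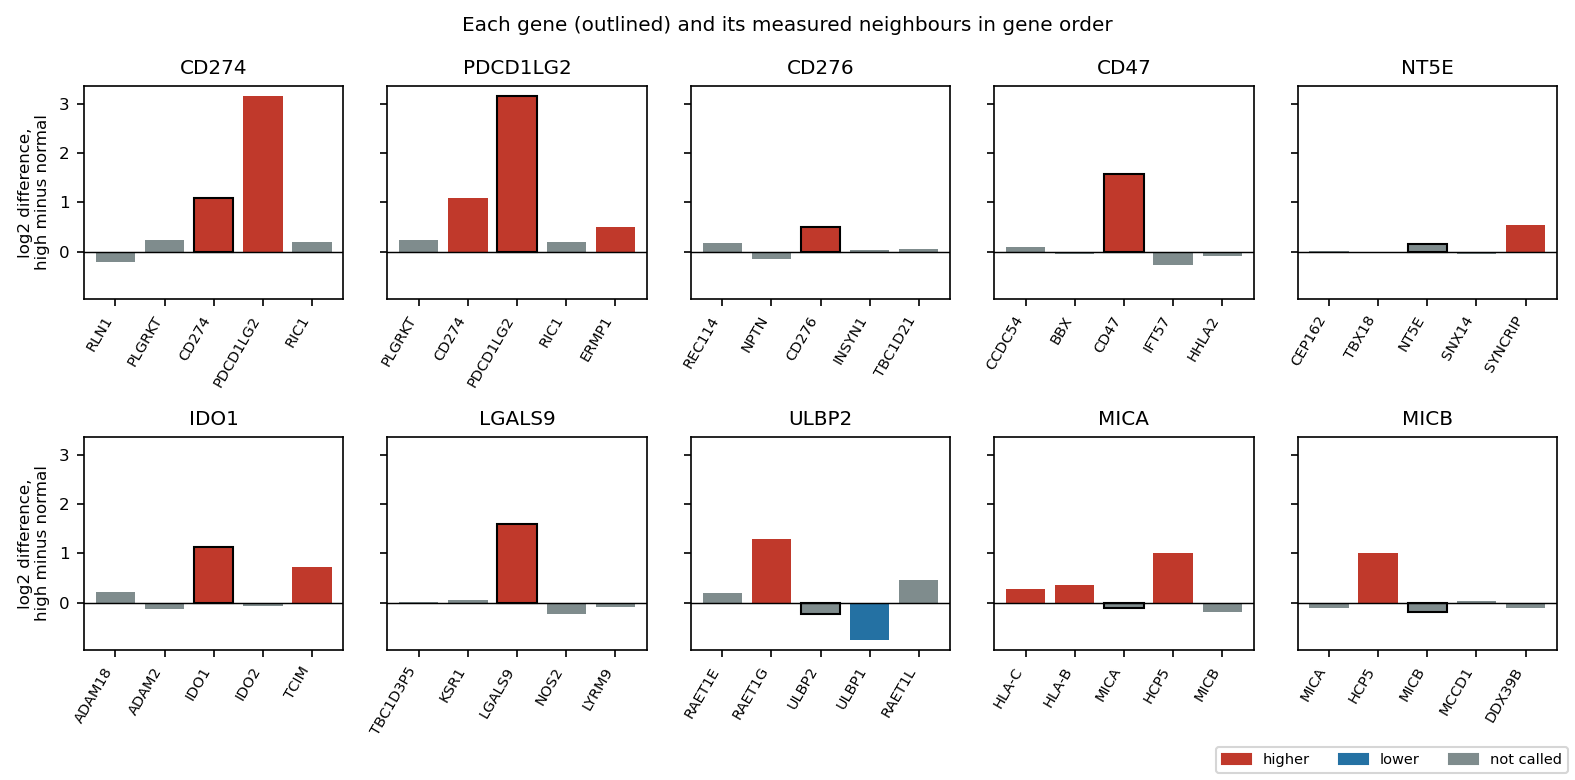
Log2 difference (high minus normal glucose) of each of the 10 genes (outlined bar) and of the 2 nearest measured genes on each side in gene order, coloured by call. The bars of CD47, CD276 and LGALS9 stand above neighbours near 0, and HCP5 rises between MICA and MICB.

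Over the 4 arrays, the genes whose values ran closest to those of PDCD1LG2, after each gene was centred on its own mean, were DKK3, CENPW and CCDC80, at Euclidean distances of 0.0392, 0.0564 and 0.0651 on the log2 scale. With 2 groups of 2 arrays, this likeness says that the differences were of the same size (3.15, 3.13 and 3.16).

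Across probe sets, as a description, Pearson's r was 0.997 between the normal glucose arrays, 0.996 between the high glucose ones and 0.946 to 0.947 across the groups. For a single gene the exact two-sided permutation test cannot go below p = 0.333 here, so that calls rest on the spread limma shares between genes. The signal of the beta-actin control at its 3' end exceeded that at its 5' end by 0.71 and 0.74 on the normal glucose arrays. On the high glucose arrays it did so by 0.35 and 0.42. For GAPDH the same difference was 0.24 and 0.13 in normal and 0.08 and 0.12 in high glucose, and the part of these differences in the results was not tested.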

How the data were processed

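RNA of UM1 cells was measured on 4 arrays, 2 per glucose level. The authors scanned the arrays with GCOS and deposited log2 values made by RMA (background correction, quantile normalization, summary per probe set), with both versions not given in the sources used here. Probe set identifiers and annotation are those of PrimeView, although U133 Plus 2.0 is the array that the methods name. Of 49395 probe sets, 102 controls were left out, 44988 were annotated to 1 gene, 1832 to several and 2473 to no gene listed here. A gene was read from the brightest of its own probe sets (by the mean of the 4 arrays). Groups were compared with limma 3.58.1 (lmFit and eBayes, R 4.3.3) over 18132 genes, with Benjamini-Hochberg adjustment over all of them, and again over 49293 probe sets. The script was tested on simulated data. Tables and figures were made with Python 3.11.15, pandas 2.3.3, numpy 2.4.6, scipy 1.17.1 and matplotlib 3.10.9. Array values carry no depth, and the number of arrays limits the precision.

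The 10 genes and the gene lists were chosen with earlier results of these data known. Named were the 10 genes, up to 4 called genes of each list with the largest absolute difference, all further NKG2D ligands and shedding genes, the 3 brightest of each marker list, 2 measured neighbours on each side, and the 3 nearest patterns. A group that did not exceed the 25th percentile on any of its arrays was set to that percentile, which gives a lower bound of the fold. Alternatives were the summary over probe sets, probe sets shared between genes, those ending in _x_at, dim genes, a floor, quantile normalization, median centring, limma-trend, the methods' t-test and thresholds, a replicate block, and each array left out in turn. Some genes of the lists are not reported here. Replicate cultures were named as biological replicates without further detail, so p-values measure the spread between these arrays.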

Additional observations from a re-analysis of the deposited data

How the results depend on the processing

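Of the 10 genes 4 to 6 were called higher under the alternatives: 4 with the methods' t-test, 5 with the methods' thresholds, 5 with an added 2-fold threshold, 5 of 9 measured without _x_at probe sets (LGALS9 then had none), 5 to 6 with an array left out, and 6 otherwise. The count of lower genes moved from 0 to 1, which was MICB, with the mean of its probe sets (-0.50, adjusted p = 0.00525 from limma), their median (-0.46, adjusted p = 0.00933 from limma) and without _x_at probe sets (-0.39, adjusted p = 0.0325 from limma). It was 0 with any array left out. NT5E changed sign with the median of its probe sets (-0.066) and ranged from -0.0015 to 0.29 with an array left out. The methods' t-test left CD274 (1.10, adjusted p = 0.0951) and IDO1 (1.12, adjusted p = 0.255) not called, and CD276 (0.50) missed the methods' thresholds and the 2-fold one. IDO1 ranged from 0.71 to 1.54 with an array left out and stayed called without high glucose replicate 1 only (adjusted p = 0.0114 from limma). PDCD1LG2, CD47, ULBP2 and MICA kept direction and call in all 18 alternatives, and LGALS9 in the 17 that measured it.

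Of 288 counts of called genes in the lists under the alternatives, 257 stayed within 1.5 times the reported count and 31 did not. Over all genes, 2808 higher and 4023 lower became 1348 and 1668 with the methods' t-test, 1930 and 2433 with the methods' thresholds, and 1157 and 993 with an added 2-fold threshold. Deviations of same-numbered arrays from their group means showed no correlation (r = 0.0054). Whether the cultures were paired is not given in the labels, and this value cannot decide it. With a replicate block 6 of the 10 genes were called higher and 0 lower, and 2529 and 3592 of all genes. The replicate block changed no call of the 10 genes. With 1 array left in a group, its spread was taken to be that of the other group. IDO1 lay nearest to the array background, which limits its fold to a bound.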
